A study of Homo sapiens with 8 samples.

Results

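Potassium channel genes were taken as every gene whose symbol is KCN, then 1 or more letters, then a number, which gave 93 of the 19158 genes measured, of which 92 are described. These fall into 27 pore-forming voltage-gated (Kv) subunits, 10 modulatory Kv subunits, 8 channels gated by calcium, sodium or pH, 16 inward rectifiers, 15 tandem-pore-domain channels (K2P) and 16 auxiliary subunits. The RNA came from A549, an established wild-type epithelial line from a human lung adenocarcinoma, grown in DMEM with GlutaMAX and 5% fetal bovine serum. There were 4 untreated wells, and 4 wells that received 1 µM dexamethasone, a synthetic glucocorticoid, for 48 h, with 1 library of rRNA-depleted total RNA per well. Each group holds wells numbered 1, 3, 4 and 5, all 8 libraries bore the same batch label, and all wells were of 1 cell line, so p-values measure the spread between these wells. Levels are in FPKM, fragment counts scaled to transcript length and to library depth, a unit inferred from the values.

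Potassium channels let potassium leave the cell down its gradient and so hold the membrane voltage negative. In airway epithelium that voltage is the driving force for chloride secretion and sodium uptake, and in dividing cells it takes part in volume control and the cell cycle. Kv channels open on depolarisation, BK and SK channels on a rise in calcium, inward rectifiers pass current near rest, and K2P channels carry a leak current. Auxiliary subunits do not form a pore but set the trafficking and gating of the channels they join.

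The libraries carried the response of their labels: FKBP5, TSC22D3 and PER1, established glucocorticoid-induced genes, were higher in all 4 dexamethasone libraries than in any untreated library. Keratin genes marked the cells as epithelial, with summed levels of 5 epithelial markers of 3339 to 4892 FPKM in untreated and 4503 to 6856 FPKM in dexamethasone libraries, although EPCAM was below 1 FPKM in every library. Of these 5, CDH1 rose 2.68-fold (limma adjusted p = 8.69e-05), and KRT7 had 1165 to 1689 and 1895 to 3608 FPKM without a call (limma adjusted p = 0.0712). Libraries numbered 5 stood apart in both groups, at -22.4 and -15.9 on the second principal component where the other 6 lay between -2.91 and 12.9, so results are also given without both. Steps between low FPKM values gave a rough depth of about 24980000 to 28660000 fragments per library. This depth is uncertain, as only 43.5% to 48.9% of low values lay near a whole fragment, with 20% by chance. Of 4 neuronal markers, relevant because many potassium channels are neuronal, RBFOX3 and SNAP25 fell, SYT1 was not called and STMN2 was at 0 in all libraries. The summed level of these 4 markers was 10.2 to 16.7 FPKM in untreated and 7.91 to 9.03 FPKM in dexamethasone libraries, and its part in the results below was not tested. Untreated and dexamethasone libraries had sums of 2.50 to 3.46 and 1.38 to 1.80 FPKM for 5 leukocyte markers, mainly CD14, with PTPRC and CD3E at 0 in all libraries. For 5 fibroblast markers the sums were 1.81 to 2.25 and 0.564 to 0.786 FPKM, mainly COL1A1 in untreated cells and COL1A1 and DCN in treated ones, with DCN at 0 in every untreated library and at 0.178 to 0.355 FPKM after dexamethasone, and COL1A2 at 0 in all libraries, and for 3 endothelial markers they stayed at or below 0.176 FPKM. Their part in the results was not tested.

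Many potassium channel genes were silent or nearly so in A549. Of the 92, 18 were at 0 in every library and a further 28 stayed under 0.1 FPKM in every library. All 7 measured KCNA genes, the Shaker-type Kv1 channels of neurons and lymphocytes, stayed at or below 0.0147 FPKM, and 5 of them were at 0 throughout. A level of at least 0.5 FPKM in at least 4 libraries, which a gene needed to be tested, was reached by 21 members (22.8%), against 63.5% of all genes. The members just inside this limit, by the level reached in 4 libraries, were KCND1 at 0.543, KCNE4 at 0.556 and KCNH2 at 0.571 FPKM. Just outside it were KCNN1 at 0.391, KCNIP3 at 0.354 and KCNIP2 at 0.334 FPKM. Of the 21, KCNH3, KCNE4 and KCNK3 passed only through the untreated libraries, so a difference in these 3 was partly fixed by the filter. KCNJ16 passed mainly through the dexamethasone libraries, 4 of which reached the level against 1 untreated library, and the same limit holds for it. KCND1 passed mainly through the untreated libraries, 4 of which reached the level against 1 dexamethasone library, so the limit holds for it too. All of these except KCND1 are among the called members below, and the counts over tested members are descriptions.

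Several abundant potassium channel genes differed between the groups, while KCNAB2, among the most abundant in both, did not pass the test. KCNMA1, KCNF1 and KCNH1, all well expressed in untreated cells, fell 3.79-fold to 9.12-fold, while the inward rectifier genes KCNJ16 and KCNJ11 rose 3.80-fold and 2.95-fold. Of the 21 tested members, 3 rose (KCNJ16, KCNJ11 and KCNK1), 9 fell (KCNF1, KCNMA1, KCNH1, KCNN4, KCNH3, KCNS3, KCNE4, KCNK3 and KCNC4), and 9 did not pass the test. In this bulk RNA fewer cells expressing a gene and less RNA per cell cannot be told apart. The test was limma on log2(FPKM + 1) with Benjamini-Hochberg adjustment over 12161 genes, called at an adjusted p under 0.05. Log2 fold changes are on that scale, which understates the change of low genes, while plain folds are ratios of mean FPKM. The called share was 57.1% of the tested members, where 27.2% of all tested genes were called. By direction, 14.3% of the tested members were higher against 11.9% of all tested genes, and 42.9% were lower against 15.3%. A change of at least 2-fold on that scale was seen in 3 of the called members (14.3% of those tested), against 7.57% of all tested genes. In FPKM as deposited, before scaling, the values of the 2 groups did not overlap in 13 tested members, the 12 called ones and KCND1. This was a share of 61.9%, where all tested genes had 31.5%. Of these 13, 3 were higher (12.3% of all tested genes) and 10 lower (19.2%). Without both libraries numbered 5, the same 3 genes rose and the same 9 fell. That fit called 5498 of 12236 genes over all genes, 2643 higher and 2855 lower. This is a larger share than the 3310 of 12161 in the main fit, so the members stood out less there. In the main fit the median log2 fold change was -0.17 over the tested members and 0.00 over all tested genes.

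**Figure D1:**
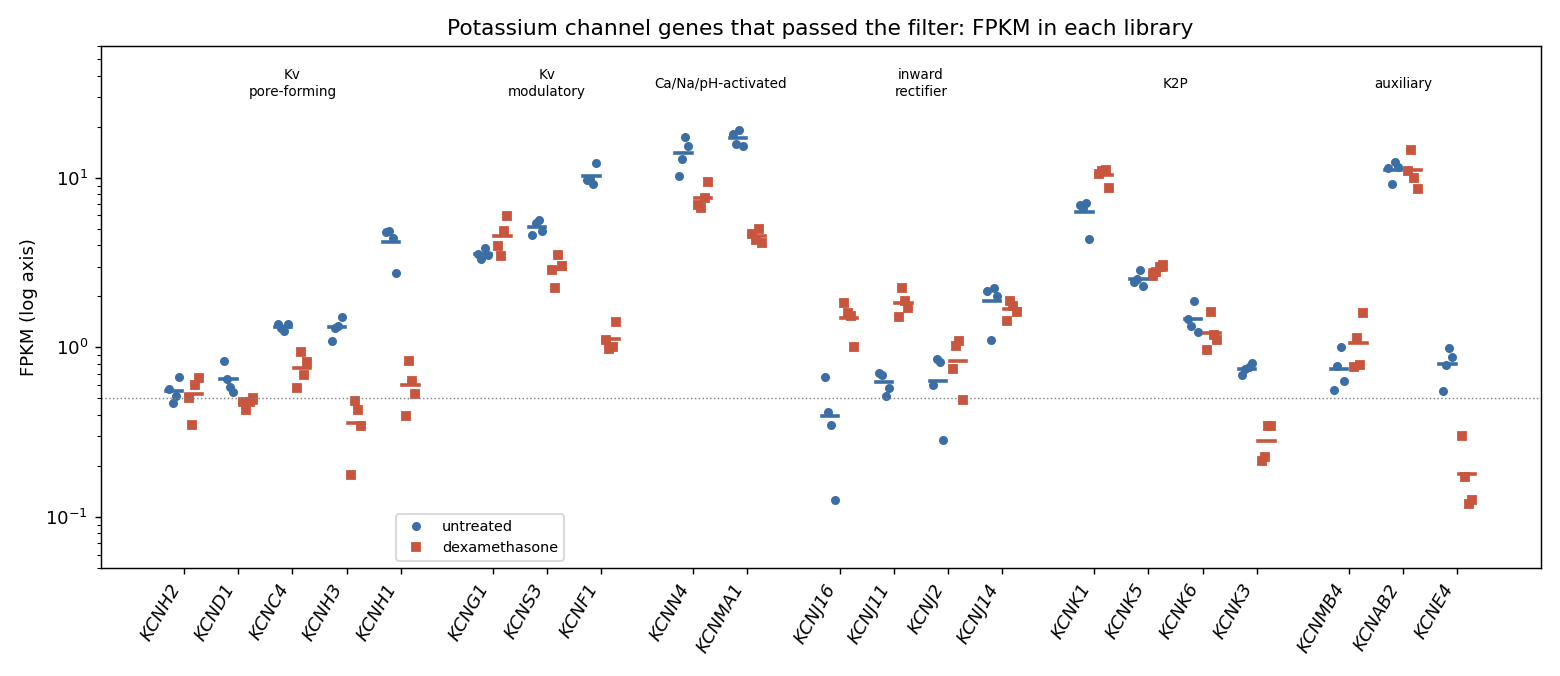
FPKM on a log axis of the 21 tested potassium channel genes in each untreated (circles) and dexamethasone (squares) library, grouped by channel class, with short lines at group means and the dotted line at 0.5 FPKM. KCNF1 sits between 9.22 and 12.2 FPKM in untreated libraries and between 0.981 and 1.41 FPKM after dexamethasone, KCNH1 and KCNMA1 move the same way, and KCNJ16 and KCNJ11 move up.

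**Figure D2:**
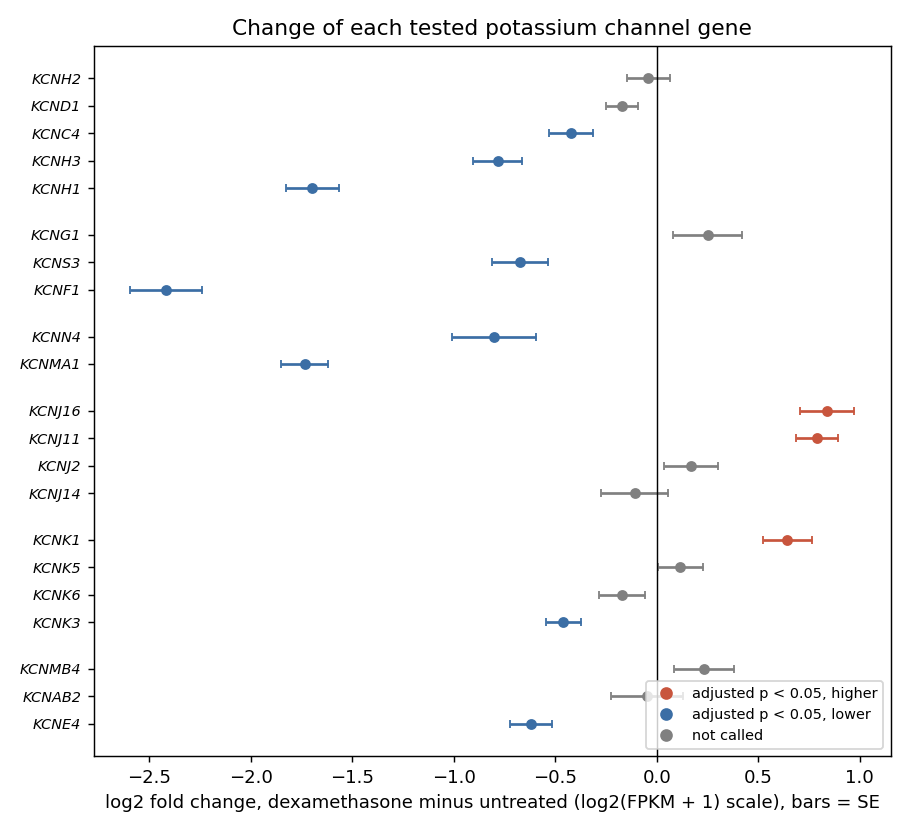
Log2 fold change of each tested member on the log2(FPKM + 1) scale, dexamethasone minus untreated, with bars for the standard error and colours for the limma call. The 3 genes that rose lie to the right, up to KCNJ16 at 0.84, and the 9 that fell lie to the left, down to KCNF1 at -2.42.

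Promoter sequences, taken as 250 bases before an annotated start, were found in RefSeq (GRCh38.p14) for 70 of the 92 members (108 starts), among them 9 of the 12 called genes. KCNJ11, KCNH3 and KCNE4 were not matched. Letters were searched on both strands, and a match is a description of the sequence only. A full glucocorticoid response element, AGAACA then NNN then TGTTCT, was in 0 of the 108 windows and in 1 of 35116 windows of all genes. Its left arm AGAACA, which is part of the longer element, was in 8 of the 108 (6 members, none of them tested) and in 12.4% of all windows. TGAGTCA, the AP-1 site, was in 5 of the 108 and in 4.203% of all windows, and 2 of the 5 belong to called members that moved in opposite directions, KCNMA1 (lower) and KCNJ16 (higher). These 2 windows are shown with the AP-1 letters in capitals, beside those of KCNF1 and KCNH1, among the largest falls, which hold none of the 3 motifs. They run 5′ to 3′ on the gene's strand and end at the base before the start.
KCNMA1, inner start, chr10:77350762-77351011, minus strand: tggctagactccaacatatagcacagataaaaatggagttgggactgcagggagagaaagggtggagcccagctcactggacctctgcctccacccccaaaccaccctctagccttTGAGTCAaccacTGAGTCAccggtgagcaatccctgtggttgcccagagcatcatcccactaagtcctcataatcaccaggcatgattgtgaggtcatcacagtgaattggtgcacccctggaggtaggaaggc
KCNJ16, inner start, chr17:70074975-70075224, plus strand: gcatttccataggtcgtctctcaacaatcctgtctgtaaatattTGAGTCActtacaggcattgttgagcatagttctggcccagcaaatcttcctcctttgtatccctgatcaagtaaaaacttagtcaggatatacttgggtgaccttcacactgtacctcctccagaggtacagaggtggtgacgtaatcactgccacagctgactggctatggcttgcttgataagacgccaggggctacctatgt
KCNF1, chr2:10911684-10911933, plus strand: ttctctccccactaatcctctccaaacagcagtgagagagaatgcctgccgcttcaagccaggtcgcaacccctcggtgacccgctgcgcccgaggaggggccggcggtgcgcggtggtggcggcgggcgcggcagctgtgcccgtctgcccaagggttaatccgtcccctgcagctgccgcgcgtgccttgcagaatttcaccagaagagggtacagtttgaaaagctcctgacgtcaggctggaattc
KCNH1, chr1:211134149-211134398, minus strand: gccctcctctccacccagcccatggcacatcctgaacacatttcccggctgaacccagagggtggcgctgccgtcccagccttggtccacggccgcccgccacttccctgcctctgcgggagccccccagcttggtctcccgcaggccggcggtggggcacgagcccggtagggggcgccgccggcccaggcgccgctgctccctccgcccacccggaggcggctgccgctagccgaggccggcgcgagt
In KCNMA1 the capitals mark 2 copies, beginning 134 and 122 bases before the start, and in KCNJ16 1 copy beginning 206 bases before it. The GC content of these windows was 53.6%, 46.4%, 63.6% and 75.6%.

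Of 27 pore-forming Kv subunits described, 5 were tested, 3 fell and 2 did not pass. Over all tested genes 11.9% were higher and 15.3% lower. With 2 to 5 tested genes per class, the counts by class here and below are descriptions. Of 3 tested genes of the ether-à-go-go family, KCNH1 and KCNH3 fell and KCNH2 was not called. KCNH1 (EAG1), a Kv channel studied for its expression in many tumours, lies on chromosome 1, 210676823 to 211134180, minus strand. It had 4.79, 4.85, 4.43 and 2.76 FPKM in untreated replicates 1, 3, 4 and 5 and 0.392, 0.831, 0.634 and 0.535 FPKM in the same-numbered dexamethasone replicates. Untreated replicate 5 was the lowest of its group, yet 3 times and more above the highest treated library. The mean went from 4.21 ± 0.982 to 0.598 ± 0.184 FPKM (SD, n = 4 each), 7.03-fold lower, at -1.70 on the log2 scale with an SE of 0.129 (limma adjusted p = 1.72e-05). KCNH3 (chromosome 12, 49539157 to 49558308, plus strand), which encodes Kv12.2 of the ELK branch, went from 1.09, 1.30, 1.34 and 1.52 FPKM to 0.177, 0.481, 0.427 and 0.343 FPKM. Its log2 fold change came to -0.78 with an SE of 0.12 (limma adjusted p = 0.00116), and -0.50 with each library's trend on gene GC content removed. KCNH2, the hERG channel that repolarises the heart, had 0.556 ± 0.083 and 0.528 ± 0.134 FPKM (SD, n = 4 each). Its groups overlapped (limma adjusted p = 0.791).

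KCNC4 (chromosome 1, 110211343 to 110283100, plus strand) encodes Kv3.4, a fast-inactivating channel. It had 1.38, 1.30, 1.25 and 1.37 FPKM in untreated and 0.58, 0.934, 0.684 and 0.82 FPKM in dexamethasone replicates 1, 3, 4 and 5, with the untreated libraries close together and no overlap. Mean KCNC4 fell from 1.324 ± 0.0622 to 0.754 ± 0.155 FPKM (SD, n = 4 each). The log2 fold change came to -0.42 with an SE of 0.107 (limma adjusted p = 0.0164), and the call was lost without dexamethasone replicate 1 (-0.35, limma adjusted p = 0.0661) or 4 (-0.40, limma adjusted p = 0.0569). KCND1 (Kv4.1) had 0.543 to 0.831 FPKM untreated and 0.428 to 0.502 FPKM treated. These ranges did not overlap, but the difference was not called (log2 fold change -0.17, SE 0.0789, limma adjusted p = 0.137). It was the 1 tested member with separate groups and no call.

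The KCNQ family, which includes the M-current channels of neurons and the KCNQ1 channel of heart and secretory epithelia, stayed below the filter. KCNQ1 had 0.313, 0.188, 0.146 and 0.142 FPKM in untreated and 0.712, 0.324, 0.623 and 1.16 FPKM in dexamethasone replicates 1, 3, 4 and 5. KCNQ3 had 0.0526 to 0.12 FPKM untreated and 0.168 to 0.672 FPKM treated, and KCNQ5 had 0.246 to 0.428 and 0.0649 to 0.19 FPKM. Groups of these 3 genes did not overlap, with KCNQ5 in the opposite direction to the other 2. They were outside the main test, and a fit with no filter on low values called all 3, at log2 fold changes of 0.49, 0.40 and -0.24 for KCNQ1, KCNQ3 and KCNQ5 (limma adjusted p = 0.0446, 0.0212 and 0.00461). In GENCODE v44, KCNQ1 overlaps KCNQ1OT1 and KCNQ1-AS1, and KCNQ5 overlaps KCNQ5-AS1, on the opposite strand. Strand use is not stated, so these low values are uncertain, and the part of the overlapping genes was not tested. KCNE1, KCNE2 and KCNE3, which encode partners of KCNQ1, stayed at or below 0.0808 FPKM.

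Modulatory Kv subunits do not form channels alone but join pore-forming Kv subunits and change their current. Of 10, 3 were tested and 2 fell, where 15.3% of all tested genes were lower. KCNF1 (Kv5.1), a gene with 1 short locus on chromosome 2, 10911937 to 10914225, plus strand, had 9.77, 9.83, 9.22 and 12.2 FPKM in untreated replicates 1, 3, 4 and 5. After dexamethasone it had 1.10, 0.981, 1.00 and 1.41 FPKM, so the 2 groups were far apart, with replicate 5 the highest of each. The fall from 10.3 ± 1.34 to 1.12 ± 0.2 FPKM (SD, n = 4 each) was 9.12-fold, at -2.42 on the log2 scale with an SE of 0.176 (limma adjusted p = 1.44e-05). KCNS3 (Kv9.3), on chromosome 2, 17877847 to 18361616, plus strand, had 4.59, 5.46, 5.62 and 4.85 FPKM untreated and 2.85, 2.25, 3.50 and 3.02 FPKM treated. This smaller fall, 1.76-fold, had a log2 fold change of -0.67 with an SE of 0.139 (limma adjusted p = 0.00592). KCNG1 (Kv6.1) had 3.57 ± 0.226 and 4.57 ± 1.08 FPKM (SD, n = 4 each), with overlapping groups (log2 fold change 0.25, limma adjusted p = 0.305). With the GC trend removed KCNG1 was called, at 0.41 (limma adjusted p = 0.0298).

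The summed level of the 10 modulatory genes was 18.4 to 20.9 FPKM in untreated and 7.08 to 10.8 FPKM in dexamethasone libraries, ranges far apart. KCNF1 carried most of this fall. The mean sum went from 19.5 to 8.98 FPKM, KCNF1 from 10.3 to 1.12 FPKM and KCNS3 from 5.13 to 2.91 FPKM. Mean KCNG1 went the other way, from 3.57 to 4.57 FPKM without a call, and the remaining modulatory genes were not tested. The commonest modulatory gene was KCNF1 in untreated cells and KCNG1 after dexamethasone.

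**Figure D3:**
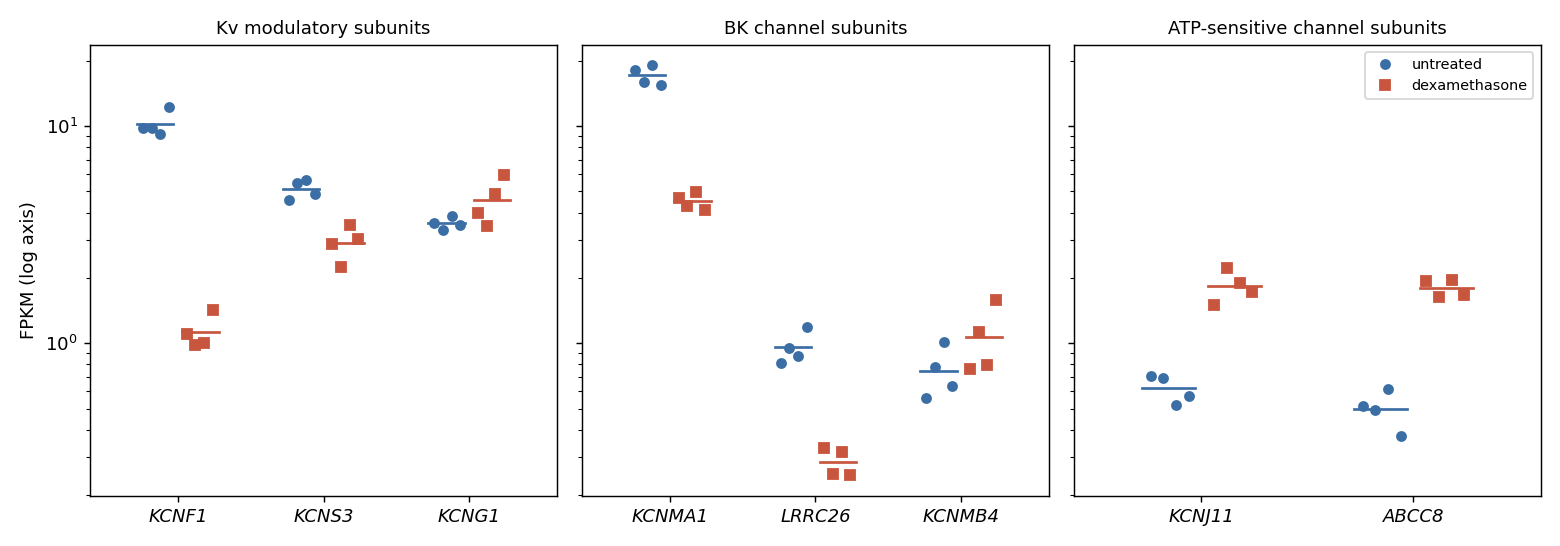
FPKM on a log axis in each untreated (circles) and dexamethasone (squares) library for modulatory Kv subunits, BK channel subunits and subunits of the ATP-sensitive channel, with short lines at group means. KCNF1 and KCNS3 are below their untreated values, KCNMA1 and LRRC26 are both lower, and KCNJ11 and ABCC8 are both higher.

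The calcium-activated channels held the largest summed level of the 5 classes summed in untreated cells. Both tested members fell, where 15.3% of all tested genes were lower. KCNMA1, whose inner promoter window is shown above, encodes the pore of the BK channel, a large-conductance channel opened by calcium and voltage that takes part in airway surface hydration (ENSG00000156113, chromosome 10, 76869601 to 77638369, minus strand). It had 18.1, 15.9, 19.1 and 15.4 FPKM in untreated replicates 1, 3, 4 and 5 and 4.68, 4.29, 4.97 and 4.11 FPKM in the dexamethasone replicates. The lowest untreated library was about 3 times the highest treated one. The mean fell from 17.1 ± 1.76 to 4.52 ± 0.389 FPKM (SD, n = 4 each), 3.79-fold, at -1.73 on the log2 scale with an SE of 0.116 (limma adjusted p = 8.12e-06). KCNN4 encodes KCa3.1, the calcium-activated channel of intermediate conductance found on the basolateral side of secretory epithelia (chromosome 19, 43766533 to 43781261, minus strand). Its levels were 10.2, 13.0, 17.5 and 15.4 FPKM untreated and 6.91, 6.66, 7.60 and 9.41 FPKM treated, the widest untreated spread of the abundant members. The log2 fold change came to -0.80 with an SE of 0.206 (limma adjusted p = 0.0179). That call was lost without dexamethasone replicate 1 (-0.72, limma adjusted p = 0.0654), 3 (-0.74, limma adjusted p = 0.0577) or 4 (-0.79, limma adjusted p = 0.0504). The class sum went from 28.6 to 36.9 FPKM in untreated libraries to 11.2 to 14.1 FPKM in dexamethasone libraries. Small-conductance KCNN1 had 0.0983 to 0.507 and 0.209 to 0.467 FPKM and was not tested.

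BK channels also carry auxiliary subunits. LRRC26, which is no KCN gene but encodes the gamma subunit that lets BK channels open at resting calcium, had 0.809, 0.952, 0.876 and 1.19 FPKM untreated and 0.328, 0.249, 0.314 and 0.247 FPKM treated. Its fall had a log2 fold change of -0.62 with an SE of 0.107 (limma adjusted p = 0.00245) and was not called with the GC trend removed (-0.22, limma adjusted p = 0.227). LRRC26 passed the filter only through the untreated libraries, so its difference was partly fixed by the filter. KCNMA1 exceeded LRRC26 by 13.0 to 22.4 times in untreated and by 14.3 to 17.3 times in dexamethasone libraries, ranges that overlap. KCNMB4, the beta subunit best known from neurons, had 0.558 to 1.013 and 0.764 to 1.59 FPKM and was not called (log2 fold change 0.23, SE 0.147, limma adjusted p = 0.269). The ratio of KCNMA1 to KCNMB4 was 18.9 to 32.4 in untreated and 2.59 to 6.29 in dexamethasone libraries.

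Of 16 inward rectifiers 4 were tested, 2 rose and 2 did not pass, where 11.9% of all tested genes were higher. KCNJ11 encodes Kir6.2, the pore of the ATP-sensitive channel that couples metabolism to membrane voltage (chromosome 11, 17385859 to 17389331, minus strand). It had 0.706, 0.692, 0.518 and 0.573 FPKM in untreated and 1.505, 2.23, 1.89 and 1.72 FPKM in dexamethasone replicates 1, 3, 4 and 5. The lowest treated library was more than 2 times the highest untreated one, and the log2 fold change came to 0.79 with an SE of 0.105 (limma adjusted p = 0.000466). ABCC8, the sulfonylurea receptor SUR1 that assembles with Kir6.2, lies 3.17 kb away on the same strand (chromosome 11, 17392498 to 17476879). ABCC8 had 0.513, 0.492, 0.615 and 0.375 FPKM untreated and 1.94, 1.64, 1.96 and 1.66 FPKM treated, a log2 fold change of 0.90 with an SE of 0.0837 (limma adjusted p = 5.4e-05). The ratio of KCNJ11 to ABCC8 was 0.842 to 1.53 in untreated and 0.774 to 1.36 in dexamethasone libraries, so the ranges of this ratio overlapped. The second such gene pair, KCNJ8 and ABCC9 on chromosome 12, was at 0.127 to 0.364 and 0.0317 to 0.133 FPKM for KCNJ8 and under 0.01 FPKM on average for ABCC9.

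KCNJ16 and KCNJ2 are neighbours on the plus strand of chromosome 17, 33.1 kb apart. KCNJ16 (70053429 to 70135608) encodes Kir5.1, a subunit known to pair with KCNJ10 in kidney and glia. KCNJ16 had 0.674, 0.416, 0.351 and 0.126 FPKM untreated and 1.83, 1.60, 1.52 and 0.999 FPKM treated, with replicate 5 the lowest of both groups. Its log2 fold change came to 0.84 with an SE of 0.133 (limma adjusted p = 0.00147). KCNJ10 stayed at or below 0.0137 FPKM in all 8 libraries. KCNJ2 (70168673 to 70180048), the strong rectifier Kir2.1, had 0.285 to 0.849 and 0.49 to 1.09 FPKM (log2 fold change 0.17, SE 0.131, limma adjusted p = 0.362). KCNJ14 (Kir2.4) was the most abundant inward rectifier in untreated cells, at 1.88 ± 0.523 and 1.67 ± 0.192 FPKM (SD, n = 4 each), and was not called (limma adjusted p = 0.646).

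Of 15 K2P genes 4 were tested, 1 rose, 1 fell and 2 did not pass. Over all tested genes 11.9% were higher and 15.3% lower. KCNK1 (TWIK-1), a weak leak channel found in many epithelia, had 6.92, 6.60, 7.12 and 4.36 FPKM in untreated and 10.5, 11.1, 11.1 and 8.71 FPKM in dexamethasone replicates 1, 3, 4 and 5. Both libraries numbered 5 were the lowest of their group, and the groups did not overlap. KCNK1 (chromosome 1, 233614004 to 233672512, plus strand) rose 1.66-fold, at 0.64 on the log2 scale with an SE of 0.121 (limma adjusted p = 0.00364). KCNK3 (TASK-1, chromosome 2, 26692690 to 26733420, plus strand), a leak channel closed by extracellular acid, had 0.686, 0.744, 0.766 and 0.806 FPKM untreated and 0.213, 0.227, 0.344 and 0.342 FPKM treated. Its log2 fold change came to -0.46 with an SE of 0.0864 (limma adjusted p = 0.00361), and -0.26 with the GC trend removed (limma adjusted p = 0.0455). KCNK5 (TASK-2), an alkaline-activated channel of epithelia, had 2.53 ± 0.235 and 2.86 ± 0.184 FPKM (SD, n = 4 each), with a log2 fold change of 0.12 (limma adjusted p = 0.459). With the GC trend removed it was called, at 0.33 (limma adjusted p = 0.0317). KCNK6 (TWIK-2) had 1.24 to 1.87 and 0.971 to 1.61 FPKM (log2 fold change -0.17, limma adjusted p = 0.294).

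Of 16 auxiliary genes, 3 were tested and 1 fell, where 15.3% of all tested genes were lower. KCNAB2, a cytosolic beta subunit of Kv1 channels with an aldo-keto reductase fold, was the most abundant auxiliary gene. It had 11.5, 9.19, 12.4 and 11.5 FPKM untreated and 10.9, 14.7, 10.01 and 8.61 FPKM treated, with overlapping groups (log2 fold change -0.05, SE 0.179, limma adjusted p = 0.861). Its level stood beside Kv1 genes that were at or near 0, as given above. KCNE4 (chromosome 2, 223051814 to 223198399, plus strand), a small membrane subunit that inhibits several Kv channels, had 0.556, 0.784, 0.995 and 0.876 FPKM untreated and 0.302, 0.172, 0.119 and 0.127 FPKM treated. Its log2 fold change came to -0.62 with an SE of 0.104 (limma adjusted p = 0.002). KCNIP2 and KCNIP3, calcium sensors of Kv4 channels, had 0.128 to 0.633 and 0.154 to 0.531 FPKM over all 8 libraries and were not tested.

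The order of abundance changed with treatment. In untreated cells KCNMA1, KCNN4, KCNAB2 and KCNF1 were the most abundant members described, at means of 17.1, 14.0, 11.1 and 10.3 FPKM. The ranges of neighbours in that order overlapped, and KCNF1 was the first to stand apart from the next gene, KCNK1. After dexamethasone KCNK1, at 10.4 FPKM, exceeded KCNN4, at 7.65 FPKM, with overlapping ranges, and KCNMA1, at 4.52 FPKM, was below both and overlapped KCNG1. KCNAB2 overlapped KCNK1 after treatment.

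The inward rectifier genes together had 3.55 to 4.95 FPKM in untreated and 5.22 to 7.16 FPKM in dexamethasone libraries, and the K2P genes 9.33 to 13.2 and 13.6 to 16.2 FPKM. In both classes the groups did not overlap, but a few called genes carried the rise of each sum. The mean K2P sum went from 11.6 to 15.2 FPKM, and KCNK1 alone from 6.25 to 10.4 FPKM. The median log2 fold change of the 4 tested K2P genes was -0.03. The mean inward rectifier sum went from 4.18 to 6.29 FPKM, KCNJ11 from 0.622 to 1.83 FPKM and KCNJ16 from 0.392 to 1.49 FPKM. The auxiliary genes had 12.2 to 15.6 and 11.1 to 17.4 FPKM, which overlap. Members with groups that did not overlap and levels under the filter of the main test were 4 higher (KCNQ1, KCNQ3, KCNN2 and KCNJ6) and 6 lower (KCNC1, KCNH4, KCNQ5, KCNAB3, KCNT2 and KCNJ12). Among all genes not tested, 3.5% were higher and 5.39% were lower in this way. A fit with no filter called these members in the same directions, KCNN2 and KCNT2 excepted, and KCNG3 (lower) beside them.

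**Figure D4:**
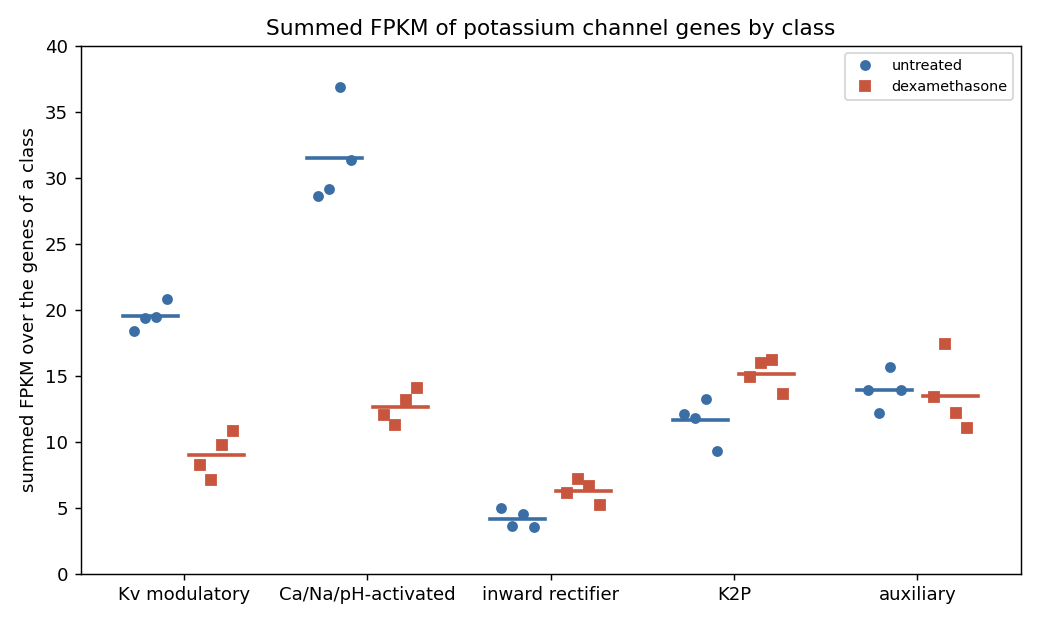
Summed FPKM of the potassium channel genes of 5 classes in each untreated (circles) and dexamethasone (squares) library, with short lines at group means. The calcium-, sodium- and pH-activated sum is at least 28.6 FPKM in untreated libraries and at most 14.1 FPKM after dexamethasone, the modulatory Kv sum also moves down, and the inward rectifier and K2P sums move up.

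A list of 13 potassium channel subunits known from airway epithelium (KCNQ1, KCNE2, KCNE3, KCNN4, KCNMA1, KCNMB2, KCNMB4, LRRC26, KCNK1, KCNK2, KCNK3, KCNK5 and KCNK6) was read from the same test. Of 8 tested, KCNK1 rose, KCNMA1, KCNN4, LRRC26 and KCNK3 fell, and KCNMB4, KCNK5 and KCNK6 did not pass, against 27.2% of all tested genes called. LRRC26 and KCNK3 entered the test through their untreated levels alone. A second list held 23 partner genes: other channel subunits, channel regulators, cation-chloride cotransporters, sodium pump subunits and the chloride channels CFTR and ANO1. Of 15 tested partners, 4 rose, 2 fell and 9 did not pass, with a median log2 fold change of 0.13, where 11.9% of all tested genes were higher and 15.3% lower. The chloride channel genes were below the filter and not tested. ANO1 had 0.386 to 1.78 FPKM untreated and 0.095 to 0.137 FPKM treated, with no overlap. CFTR had 0 to 0.175 and 0.00618 to 0.24 FPKM, which overlap. SGK1, a kinase that raises the surface level of several channels, had 6.07 ± 1.74 FPKM untreated and 23.3 ± 7.10 FPKM treated (SD, n = 4 each). On the log2 scale SGK1 rose by 1.75 with an SE of 0.238 (limma adjusted p = 0.000599). AKAP9, a scaffold protein that binds the KCNQ1 channel, had 1.28 ± 0.514 FPKM untreated and 3.93 ± 1.07 FPKM treated (SD, n = 4 each), at 1.12 on the log2 scale with an SE of 0.207 (limma adjusted p = 0.00355). The others that rose were ABCC8 and ATP1B1, a beta subunit of the sodium pump. ATP1B1 had 106 ± 29.0 FPKM untreated and 157 ± 17.0 FPKM treated (SD, n = 4 each), at 0.58 on the log2 scale (limma adjusted p = 0.0285). It was not called without dexamethasone replicate 1, 3 or 4 (0.61, 0.54 and 0.56, limma adjusted p up to 0.0835), with no scaling (0.60, limma adjusted p = 0.0769) or with the GC trend removed (0.28, limma adjusted p = 0.0632). The potassium-chloride cotransporter gene SLC12A7 fell from 14.6 ± 0.939 to 9.29 ± 1.08 FPKM (log2 fold change -0.63, limma adjusted p = 0.0156), and without dexamethasone replicate 1 or 4 it was not called (-0.57 and -0.55). With the GC trend removed its value was -0.39 (limma adjusted p = 0.00657). LRRC26 was the other one that fell. AMIGO1, which encodes an adhesion protein that joins Kv channels, had 0.988 ± 0.0357 and 0.684 ± 0.142 FPKM (SD, n = 4 each) and was not called (log2 fold change -0.26, limma adjusted p = 0.0583).

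The median GC content over longest transcripts was 43.1% for the 3 members that rose, 51.5% for the 9 that fell and 48.2% over all tested genes. With the GC trend of each library removed all 12 calls stood in the same direction, and KCNG1 and KCNK5 were added. How reads shared between overlapping genes were counted, and whether strand was used, is not stated, so members with an overlap carry an uncertain value. In GENCODE v44, 6 of the 21 tested members overlap a gene on the same strand, among them KCNJ14 (GRWD1), and 10 overlap one on the opposite strand, among them KCNMA1 (KCNMA1-AS1, KCNMA1-AS2 and KCNMA1-AS3), KCNH3 (MCRS1), KCNAB2 (NPHP4) and KCNJ11 (NCR3LG1).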

How the data were processed

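RNA of 8 A549 wells was measured, 1 library each. Per the series' design text and the submitters' processing notes, the authors checked reads with FastQC 0.11.9, trimmed with Cutadapt 3.4, aligned to GRCh38 with STAR 2.7.9a, counted with featureCounts (Subread 2.0.3) and tested with DESeq2 1.32.0. Annotation release and strand use are not stated. The deposited values are called counts in the labels but are not whole numbers. They were read as FPKM, inferred from the values, whose sums differ between libraries (338989 to 373855). Steps between low FPKM of genes with 1 transcript gave a depth, but only 43.5% to 48.9% of low values lay within 0.1 of a whole fragment (20% by chance), so no count test was run.

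Printed levels, SDs, ratios of means and overlaps between groups use FPKM as deposited, before scaling. For testing, TMM-type factors (trimmed at 0.3 of M and 0.05 of A, unweighted) were taken over genes with at least 0.5 FPKM in at least 4 libraries, and log2(FPKM + 1) was fitted with limma 3.58.1 in R 4.3.3 (trend, robust) on treatment alone, with two-sided p-values Benjamini-Hochberg adjusted over 12161 genes. The factors were 0.829 and 0.943 for untreated and dexamethasone replicate 5, and 1.02 to 1.07 for the other libraries. Fits without 1 library asked for 3 libraries. On data simulated from the untreated libraries, 4 against 4, 42% of 200 genes changed 2-fold and 81% of those changed 4-fold were recovered, with 4 and 8 false calls among 12037 and 12057 genes, and 9.5% of those changed 1.5-fold (12036 genes). All members that passed the filter are named, and of the partner list the 3 with the smallest p in each direction, and ATP1B1, chosen after its value was seen. Members, classes and lists were chosen with earlier results of these data known. GENCODE v44 supplied strand, overlaps, transcript length and GC content, and had all 92 members described. Not reported here are 1 gene that matches the rule and 3 partner genes; they stayed in the fit and are left out of every count, and no sum over all members or over pore-forming Kv genes is given. Alternatives were other pseudocounts, filters, scalings, variance models, a replicate block, GC removal and leaving out libraries. Proteomics of parallel wells was not analysed here.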

Additional observations from a re-analysis of the deposited data

Results flagged for a closer look

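In ATP1B1, untreated replicate 5 had 63.1 FPKM, where the other 3 untreated libraries lay between 119 and 124 FPKM, a gap of 0.921 of the group's range. Such a gap is met by chance in about 1 in 20 groups of 4, and 66 groups were checked. Without untreated replicate 5 the log2 fold change of ATP1B1 was 0.45 (limma adjusted p = 0.0106).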

How the results depend on the processing

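The 3 rises and 9 falls among members were unchanged, gene by gene, with a pseudocount of 0.1, with no or median-of-ratios scaling, without limma's trend and robust options and without both libraries numbered 5. A filter of 1 FPKM left 14 members tested, 2 higher and 7 lower, where 3055 of 11444 genes were called over all genes. With the GC trend removed 5 of 21 tested members were higher and 9 lower, against 2065 and 2357 of 12130 over all genes. With no filter, 6 of 74 tested members were higher and 15 lower, against 1532 and 2095 of 16561 over all genes. These were the main 12 and, in addition, KCNQ1, KCNQ3 and KCNJ6 (higher) and KCNAB3, KCNC1, KCNG3, KCNH4, KCNJ12 and KCNQ5 (lower). Leaving out single libraries gave 3 to 4 higher and 7 to 9 lower, and 2362 to 3821 calls over all genes. A pseudocount of 0.1 moved the log2 fold change of KCNC4 to -0.77, KCNH1 to -2.65, KCNH3 to -1.69, KCNE4 to -1.73, KCNJ11 to 1.397, KCNJ16 to 1.79 and KCNK3 to -1.19, because it compresses low levels less. ABCC8 moved to 1.66 and LRRC26 to -1.47 in the same way. Partner genes called higher were 3 to 5 without single libraries and 6 without both libraries numbered 5. Partner genes called lower were 4 with no filter, 1 with a filter of 1 FPKM, 5 without both libraries numbered 5, and 2 to 4 without single libraries, 4 of them without untreated replicate 5; the cause was not tested.

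Signs of members that were not called turned with the GC trend removed for KCND1 (0.0345), KCNH2 (0.19), KCNAB2 (0.20), KCNJ14 (0.0433) and KCNJ2 (-0.0556). Without single libraries KCNH2 ran from -0.094 to 0.0337 and KCNAB2 from -0.17 to 0.0657, in both cases highest without untreated replicate 5, and KCNAB2 was 0.13 without both libraries numbered 5. Same-numbered wells are not stated to be paired, so the main fit did not take the numbers as pairs. The correlations of deviations between same-numbered wells were 0.291, 0.0653, 0.314 and 0.713 for numbers 1, 3, 4 and 5, all positive. Not every well correlated best with its own number. Any effect shared by number stayed in the spread of the main fit. A replicate block left the member calls at 3 higher and 9 lower, raised calls over all genes from 3310 to 5776, gave 7 partner genes higher and 5 lower, and called AMIGO1 (-0.26, limma adjusted p = 0.048). Over all genes, 5498 were called without both libraries numbered 5. Fold changes of 1.5 or less were seldom recovered in simulation, so a member without a call may still have changed by that much.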
